A study of Homo sapiens with 10 samples.

Results

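Metallothioneins and the zinc exporter SLC30A1 were followed in the human melanoma line MDA-MB-435 on 10 Illumina Human-8 V1 bead arrays. The members were the genes MT1X, MT2A, MT1H, MT1E, MT1F, MT1G, MT1A, MTF1 and SLC30A1, the genes of metal storage and export around MT1X, chosen by the signal of MT1X at 6 h of HGF in an earlier look at these data. Of these 9 genes, 7 had an annotated probe, 1 each, among the 16372 genes and 24105 probes measured. No probe annotated to MT1A or MTF1 was found, although 5347 of the 24105 probes carry no gene symbol in the annotation used here. There were 2 arrays, biological duplicates according to the series design, for each of 5 groups. These were cells transduced with ITGB4, the integrin beta-4 chain of hemidesmosomes, untreated cells, and cells stimulated for 1 h, 6 h or 24 h with hepatocyte growth factor (HGF), the ligand of the MET receptor. All groups were the same line under standard growth conditions, the transduced cells had no vector-only counterpart among the samples, and neither the HGF dose nor the promoter driving ITGB4 is given in the sources used here.

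Metallothioneins are small cysteine-rich proteins that bind zinc, copper and cadmium and buffer the free metal in the cell. Their genes are switched on by MTF1, a zinc finger transcription factor that senses zinc and binds metal response elements (MREs) in their promoters. MTF1 also drives SLC30A1, which encodes the transporter ZnT1 that carries zinc out across the plasma membrane, so that storage and export of zinc share a regulator. Glucocorticoids and oxidative stress are further known inducers of metallothioneins, and metallothionein protein has long been stained for in sections of human melanoma.

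The labelled cell type fitted most of its markers. Of 13 melanocyte lineage genes with a probe, 12 were detected on at least 1 array. SOX10, PMEL, MLANA, TYR and TYRP1 were detected on 10 of 10 arrays, S100B on 9, PAX3 on 2 and MCAM on 0. The probes of CDH1, EPCAM, COL1A1, COL3A1, CD3E and CD14 were also detected on 0. Of the marker genes with a probe, 8 of 12 epithelial, 4 of 10 fibroblast and 4 of 9 immune genes were detected on at least 1 array. Among them were KRT18, LUM and CD68. At 6 h of HGF against untreated cells 0 of these 3 lists' genes passed the test, where 1.9% of all probes were called. The epithelial splicing factor gene ESRP1 was called higher at 6 h than at 1 h (0.86, adjusted p = 0.014) and lower at 24 h than at 6 h (-0.64, adjusted p = 0.031), in 7 and 6 of 10 fits that left out 1 array, and its part in the values of the metallothioneins was not tested. Of all probes, 4.67% were called from 1 h to 6 h and 8.31% from 6 h to 24 h. A probe was called detected where its detection score, which rises with the distance from negative control probes, was at least 0.99, and between 42.4% and 49.4% of the probes were detected per array. ITGB4 gave signals of 6788.1 and 5022.9 on the ITGB4 arrays and 59.6 to 63.9, never detected, on the other 8. Array background differed between replicates. On replicate 1 of the untreated and of each HGF group the 25th percentile of the detection score was 0.00814 to 0.0225, and on the other 6 arrays, both ITGB4 arrays included, it was 0.249 to 0.388. Differences were therefore also computed inside each of these kinds of array, called low-score and high-score arrays here. Outside ITGB4 cells the replicate number tracks the kind of array, and the main fit holds no term for either. With the array background as a block, 1066 probes in place of 267 were called at 6 h against untreated cells. Signals are quantile-normalised intensities in arbitrary units, in which the detection limit lay at 89.6. In bulk RNA, a lower signal in every cell and fewer cells that express the gene cannot be told apart.

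The metallothionein genes are related in sequence, and the probe sequences were not analysed here. A probe named for 1 family member may therefore bind RNA of others, and how much of each signal comes from cross-hybridisation was not tested. No member probe's level is set against that of another, since binding strength differs between probes. For the same reason, the brightest genes of a list are picked by signal only for naming, which does not rank their expression.

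Promoters are shown because the MRE is the element through which the family is known to be induced. MT2A, MT1X, MT1H and SLC30A1 were the only members with both a probe and a promoter sequence. No sequence was found for MT1A, MT1E, MT1F or MT1G, so metallothioneins with and without the 6 h rise could not be compared. The sequences are the 250 bases upstream of the annotated start (RefSeq, GRCh38.p14), which were found for 5 of the 9 genes, and are given 5′ to 3′ on the strand of the gene. Capitals mark matches to the MRE core, TGCACNC or TGCGCNC, on either strand. The windows are chr16:56608334-56608583 (+) for MT2A, chr16:56682220-56682469 (+) for MT1X, chr16:56669564-56669813 (+) for MT1H and chr1:211579162-211579411 (-) for SLC30A1.
MT2A: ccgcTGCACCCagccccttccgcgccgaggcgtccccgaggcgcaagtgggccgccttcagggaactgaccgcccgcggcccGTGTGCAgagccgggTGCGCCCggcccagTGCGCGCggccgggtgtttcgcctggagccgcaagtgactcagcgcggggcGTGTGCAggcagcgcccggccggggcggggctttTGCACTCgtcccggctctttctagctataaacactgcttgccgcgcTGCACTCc
MT1X: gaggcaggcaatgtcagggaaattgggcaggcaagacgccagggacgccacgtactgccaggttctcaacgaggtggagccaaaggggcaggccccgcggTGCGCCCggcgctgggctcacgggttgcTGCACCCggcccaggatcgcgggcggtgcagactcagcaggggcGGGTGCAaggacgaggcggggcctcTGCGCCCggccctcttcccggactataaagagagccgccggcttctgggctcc
MT1H: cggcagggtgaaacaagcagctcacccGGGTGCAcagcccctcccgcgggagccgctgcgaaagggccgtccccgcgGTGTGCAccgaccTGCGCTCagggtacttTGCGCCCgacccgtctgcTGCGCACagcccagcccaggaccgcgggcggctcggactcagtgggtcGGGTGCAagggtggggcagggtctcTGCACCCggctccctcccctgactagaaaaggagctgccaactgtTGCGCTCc
SLC30A1: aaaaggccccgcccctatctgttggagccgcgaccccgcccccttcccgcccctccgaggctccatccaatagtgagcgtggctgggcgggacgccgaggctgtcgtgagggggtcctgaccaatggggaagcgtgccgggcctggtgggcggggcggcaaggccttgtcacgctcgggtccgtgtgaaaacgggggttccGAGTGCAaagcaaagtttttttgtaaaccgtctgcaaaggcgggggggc

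The MT1H window held 8 MRE cores, 5 on the strand of the gene and 3 on the other. MT2A had 7 (5 and 2) and MT1X had 4 (3 and 1), spread over the whole window in MT2A and MT1H and from 150 to 47 bases before the start in MT1X. SLC30A1 had a single core, on the opposite strand, 43 to 49 bases before its start, and the window of MTF1 had 0. No matches overlapped one another. Of 35116 RefSeq promoters of the same length, 24.8% held at least 1 core, 6.48% at least 2, 0.37% at least 4 and 0.12% at least 5. The core of MT1H closest to the start lay at the same distance as that of MT2A, 2 bases before it. A TATA box (TATAAA, searched on the strand of the gene only) was found in MT2A and MT1X and in 6.8% of all promoters. An AP-1 site (TGACTCA, both strands) was found only in MT2A among the 5 windows, at positions -104 to -98, and in 4.2% of all promoters. These matches describe the letters of the windows and do not show binding.

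**Figure D1:**
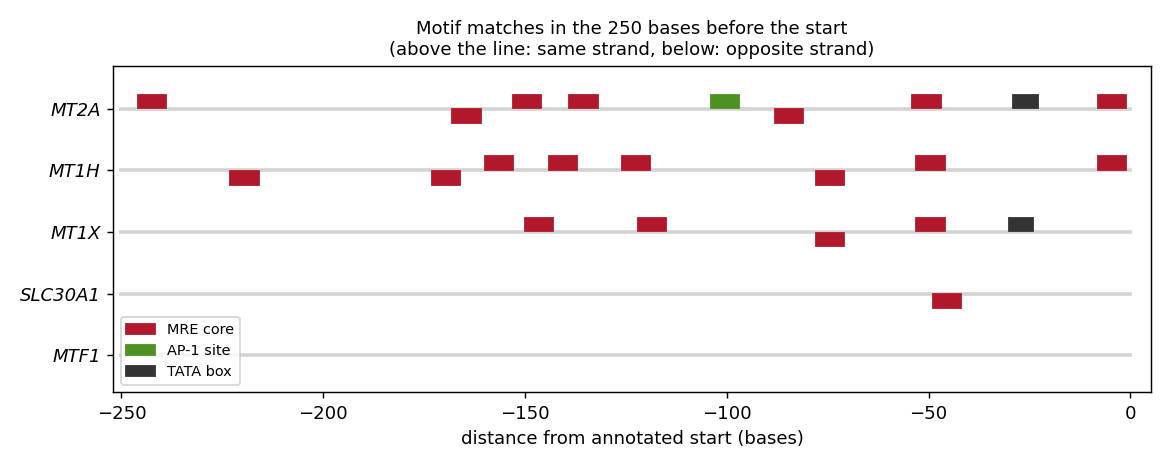
Positions of motif matches (boxes) in the 250 bases before the annotated start, one row for each of the 5 member genes with a promoter sequence. The horizontal axis is the distance from the start in bases, red boxes are MRE cores, the green box is an AP-1 site and dark boxes are TATA boxes, drawn above the line for the strand of the gene and below it for the other. MT1H has 8 MRE cores, MT2A 7, MT1X 4, SLC30A1 1 and MTF1 0.

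All 7 metallothionein members lie in 1 cluster on chromosome 16, which holds 16 metallothionein genes and pseudogenes in the annotation. MT2A is the third of them and MT1X the 16th. MT1E, MT1F and MT1G lie between MT2A and MT1H, and their probes are described separately below because they behaved differently. MTF1 and SLC30A1 lie apart, both on chromosome 1.

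In the HGF time course, MT1X, MT2A, MT1H and SLC30A1 had their highest signals at 6 h, 1.88 to 2.62-fold above untreated cells for the 3 metallothioneins. At 24 h the 3 metallothioneins overlapped with untreated cells again and SLC30A1 was below the detection limit. At 1 h no member passed the test. As MT1X was picked for its rise at 6 h and the other members by their relation to it, all comparisons that hold the 6 h arrays are given as a description, without a test of the members.

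MT1X, an inducible member of the MT1 group, had signals of 198.4 and 213.9 in untreated cells, 289.5 and 254.1 at 1 h, 535.9 and 543.4 at 6 h, and 193.0 and 262.0 at 24 h of HGF. Both 6 h arrays lay above every other array, both 1 h arrays lay above both untreated arrays, and the 24 h arrays overlapped with untreated cells. The log2 difference of 6 h to untreated was 1.39 ± 0.18 (SE, n = 2 arrays per group), a 2.62-fold higher signal and the 7th largest rise of the 14018 probes kept. A probe was kept where it was detected on at least 1 array. Compared within low-score and within high-score arrays the log2 difference was 1.43 and 1.35. At 24 h MT1X stood lower than at 6 h, with a log2 difference of -1.26 ± 0.18.

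MT2A, the most widely expressed human metallothionein, had signals of 1245.8 and 1443.7 in untreated cells, 1510.1 and 1406.5 at 1 h, 3114.1 and 3764.2 at 6 h, and 1258.8 and 1568.2 at 24 h. The 6 h arrays stood above the other 8, and the 1 h and the 24 h arrays overlapped with untreated cells. At 6 h MT2A was 2.55-fold higher than in untreated cells (log2 difference 1.35 ± 0.17, SE), the 9th largest rise, with 1.32 and 1.38 within low-score and high-score arrays. The log2 difference of 24 h to 6 h was -1.29 ± 0.17, close in size and opposite in sign to that of 6 h to untreated.

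MT1H, a further MT1 gene of the cluster, had signals of 136.3 and 165.8 in untreated cells, 173.1 and 161.4 at 1 h, 273.0 and 294.1 at 6 h, and 156.3 and 194.5 at 24 h. Its order was the same in that both 6 h arrays were above all others, while all other groups overlapped with their neighbours in level. In these signals, which are not background subtracted, the difference was smaller than for MT1X and MT2A. The signal was 1.88-fold higher at 6 h than in untreated cells (log2 0.91 ± 0.17, SE, rank 70 among the rises). The log2 difference was 1.00 within low-score and 0.83 within high-score arrays. In the background-subtracted value table of the authors MT1H was 2.89-fold higher at 6 h, close to MT2A (2.98) and below MT1X (3.63). The call of MT1H was lost there and with arrays scaled to their medians. The log2 difference of 24 h to 6 h was -0.70 ± 0.17.

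SLC30A1, the zinc exporter, was close to background in all groups but one. Its signals were 77.2 and 82.7 in untreated cells, 89.5 and 80.6 at 1 h, 174.7 and 160.7 at 6 h, and 70.8 and 73.0 at 24 h. It was detected on both 6 h arrays and on replicate 1 of HGF 1 h, and on none of the other 7 arrays, so that it passed the filter through the groups in which it was high. With the untreated level set to the detection limit, SLC30A1 was at least 1.85-fold higher at 6 h than in untreated cells, and at least 1.82-fold lower at 24 h than at 6 h. Bounds of this kind take the mean of the detected group against, for each array of the other, the lowest detected signal or the probe's own signal, whichever is higher. The measured log2 differences were 1.07 ± 0.16 and -1.22 ± 0.16 (SE), and 1.18 and 0.96 for 6 h against untreated within the low-score and the high-score arrays. In the authors' value table, which is background subtracted, SLC30A1 had 103.5 and 103.3 at 6 h, against 3.7 and 11.7 in untreated cells, under the detection limit of 18.8 in that table, which makes it at least 5.51-fold higher at 6 h. Its 24 h arrays were both below both untreated arrays, as for 14.7% of all probes, with all 4 under the detection limit.

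**Figure D2:**
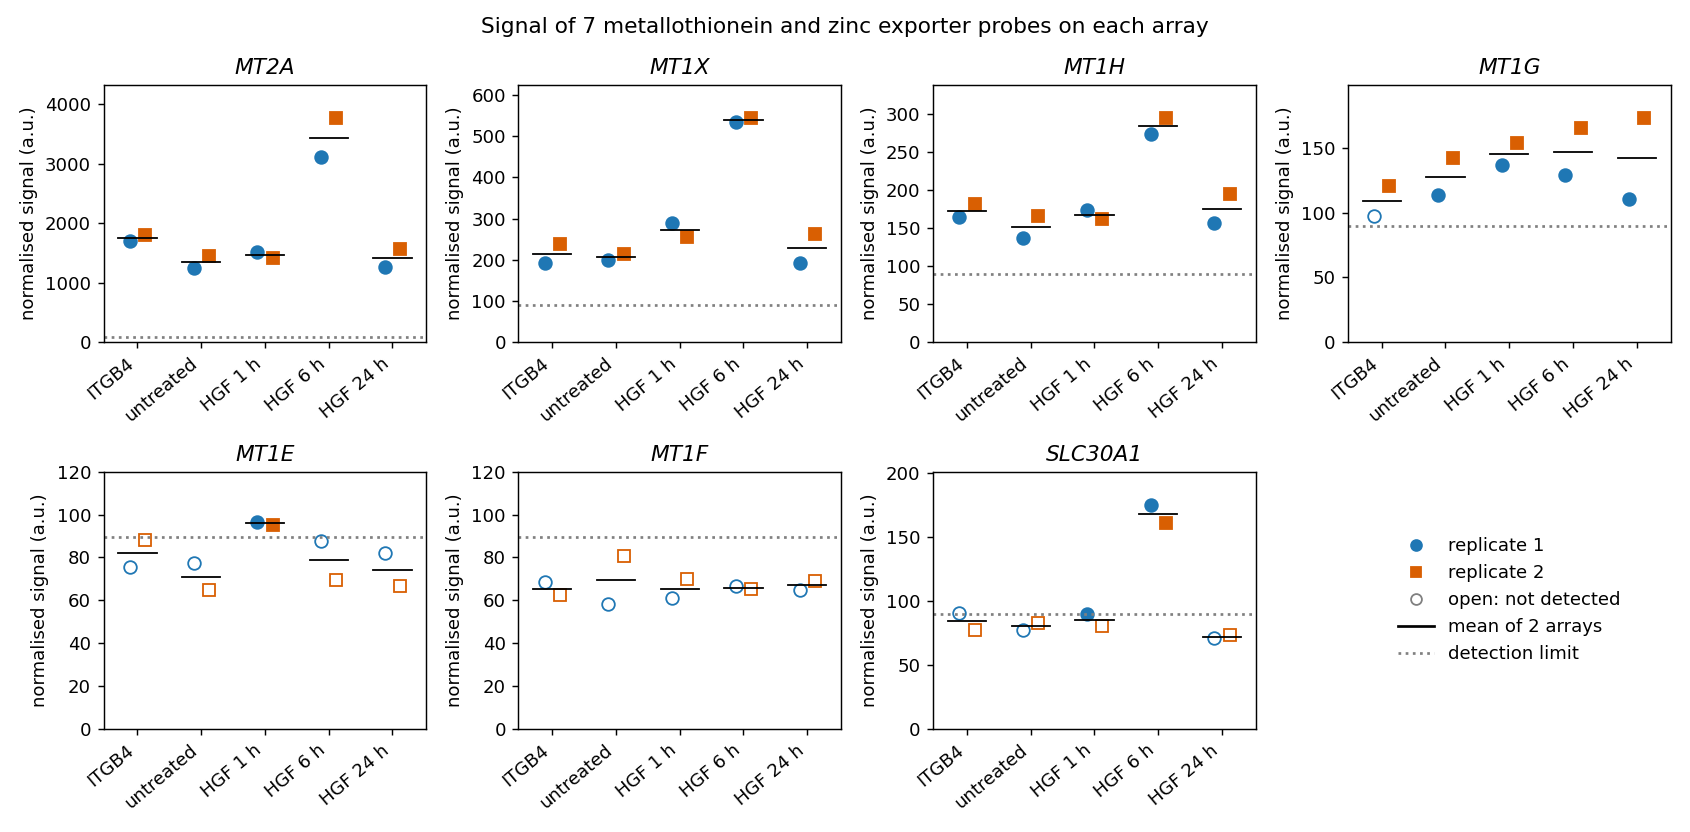
Normalised signal (arbitrary units, linear axis from 0) of each member probe on the 10 arrays, with the groups along the horizontal axis, blue circles for replicate 1, orange squares for replicate 2, open symbols for arrays on which the probe was not detected, a line for the mean of 2 arrays and a dotted line at the detection limit of 89.6. The 6 h arrays of MT2A (3114.1 and 3764.2), MT1X (535.9 and 543.4), MT1H (273.0 and 294.1) and SLC30A1 (174.7 and 160.7) lie above all other arrays, and those of MT1G and MT1E do not.

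The other 3 members did not share this time course. MT1G, an MT1 gene, was detected on all arrays but ITGB4 replicate 1. It had 113.7 and 142.1 in untreated cells, 136.6 and 154.0 at 1 h, 129.1 and 165.5 at 6 h, and 111.0 and 173.0 at 24 h. All its groups overlapped with their neighbours, and the log2 difference of 6 h to untreated was 0.20 ± 0.22 (SE). In each of the 5 groups replicate 2 was above replicate 1.

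MT1E, which lies next to MT2A among the protein-coding genes of the cluster, was detected on the 2 arrays of HGF 1 h alone, with signals of 96.7 and 95.1. Its signals were 77.2 and 64.6 in untreated cells, 87.7 and 69.5 at 6 h and 81.9 and 66.6 at 24 h, below the detection limit. Both 1 h arrays lay above the other 8, which overlapped among themselves. MT1E passed the filter only through this group, so its difference at 1 h to untreated cells (log2 0.44 ± 0.18, SE, at least 1.06-fold higher) is given as a description. MT1F, a further MT1 gene, never reached the detection score, its signals lying between 58.2 and 80.8, and was neither kept nor tested.

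In the comparison of HGF 6 h with untreated cells, 4 of the 6 kept members were among the called probes, all of them higher, where 1.9% of all 14018 probes were called (adjusted p under 0.05, limma with Benjamini-Hochberg adjustment over the kept probes). Of all probes, 0.97% were called higher, and 20.7% had both 6 h arrays above both untreated arrays. From 1 h to 6 h, 4 of the 6 members were called, against 4.67% of all probes, and had both 6 h arrays above both 1 h arrays, as did 22.7% of all probes, with log2 differences of 0.99 for MT1X, 1.23 for MT2A, 0.76 for MT1H and 0.98 for SLC30A1. From 6 h to 24 h, 4 of 6 were called, against 8.31% of all probes, and 20.3% of all probes had both 24 h arrays below both 6 h arrays. These counts follow from how the members were chosen and are not read further. They also rest on single arrays, since leaving out untreated replicate 2 or HGF 6 h replicate 2 left 0 of the 4 members called against untreated cells, leaving out HGF 6 h replicate 1 left 1 and leaving out untreated replicate 1 left 2. Without HGF 1 h replicate 1, 0 members were called from 1 h to 6 h, without its replicate 2 there were 2, and without HGF 6 h replicate 1 or 2 there were 1 and 2. From 6 h to 24 h the count stayed at 3 or 4. The log2 differences moved less, that of MT1H at 6 h against untreated cells lay between 0.77 and 1.06 over all single arrays left out.

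At 1 h of HGF, 0 of the 6 kept members were called (limma, Benjamini-Hochberg adjusted p under 0.05), as were 0% of all probes, although 1897 of the 14018 probes had an unadjusted p under 0.05. MT1X was higher at 1 h than in untreated cells on both arrays, which was also the case for 24.1% of all probes. Its log2 difference was 0.40 ± 0.18 (SE, 95% interval 0.00 to 0.79, n = 2 arrays per group, adjusted p = 0.37). The differences of MT1G, MT1H, MT2A and SLC30A1 at 1 h were 0.09 to 0.19, with adjusted p of 0.77 to 0.88, and their arrays overlapped with untreated cells.

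At 24 h of HGF, 0 of the 6 kept members were called against untreated cells, as were 0% of all probes, and 800 had an unadjusted p under 0.05. The log2 differences were 0.13 ± 0.18 for MT1X (SE, 95% interval -0.27 to 0.52, adjusted p = 0.98) and 0.07 ± 0.17 for MT2A (-0.31 to 0.44, adjusted p = 0.99). MT1H stood 0.21 ± 0.17 above untreated cells (-0.16 to 0.58, adjusted p = 0.93) and SLC30A1 0.15 below, at -0.15 ± 0.16 (-0.49 to 0.19, adjusted p = 0.96). The intervals include 0 and also differences of up to 0.58 on the log2 scale, which these 2 arrays per group could not resolve. For 4 of the 6 members, MT1X, MT2A, MT1H and MT1G, 24 h replicate 2 was above 24 h replicate 1 by more than the group means of 24 h and untreated cells differed.

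**Figure D3:**
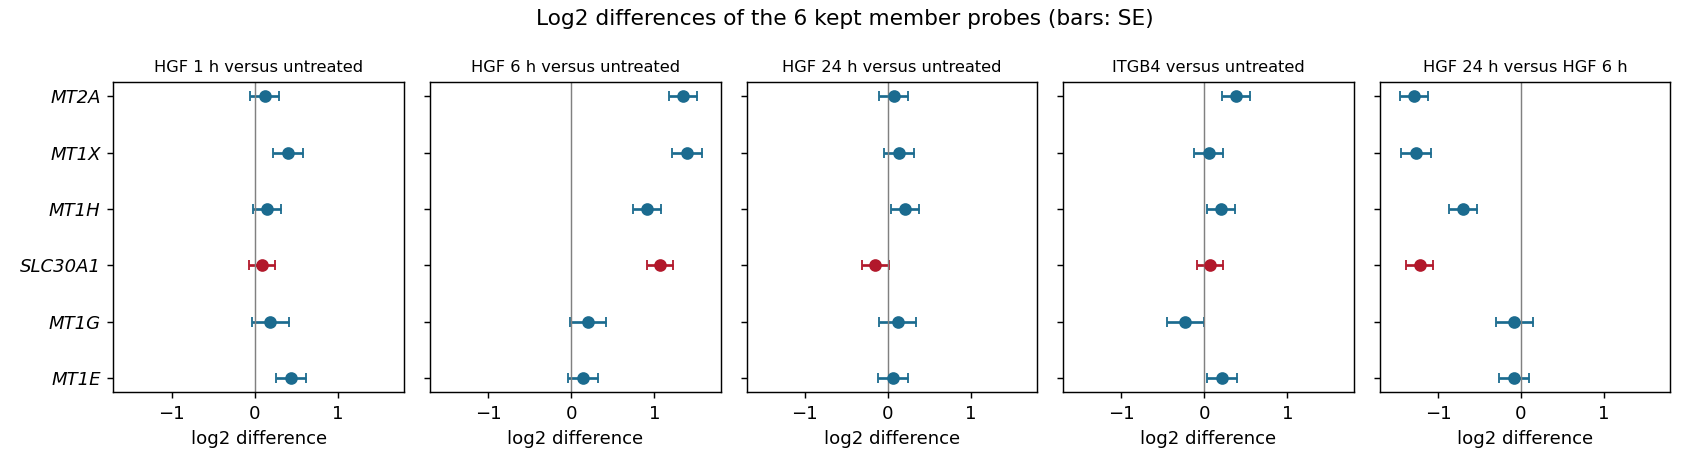
Log2 differences (points) with their standard errors (bars) of the 6 kept member probes in 5 comparisons, 1 panel each, with the metallothioneins in blue, SLC30A1 in red and a vertical line at 0. MT2A, MT1X, MT1H and SLC30A1 lie at 0.91 to 1.39 at 6 h against untreated and at -1.29 to -0.70 at 24 h against 6 h, and all 6 lie between -0.15 and 0.44 at 1 h and 24 h against untreated.

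In ITGB4 cells no kept member passed the test against untreated cells, and 2 arrays per group do not show equal levels. Both ITGB4 arrays were high-score arrays. Within high-score arrays the log2 difference to untreated cells ran from -0.39 for MT1G to 0.34 for MT1E, with 0.28 for MT2A. MT2A had signals of 1691.7 and 1805.8 in ITGB4 cells, against 1245.8 and 1443.7 in untreated cells. Both ITGB4 arrays were above both untreated arrays, as for 13.6% of all probes, and above the 1 h and 24 h arrays of HGF as well. The log2 difference was 0.38 ± 0.17 (SE, n = 2 arrays per group, 95% interval 0.01 to 0.76) and did not pass the test (adjusted p = 1). MT1X had signals of 191.5 and 237.2 in ITGB4 cells, against 198.4 and 213.9 in untreated cells, and the corresponding values were 163.8 and 181.6 against 136.3 and 165.8 for MT1H. The ITGB4 arrays of both genes overlapped with the untreated ones.

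MT1G had 97.3, not detected, and 120.5 in ITGB4 cells, against 113.7 and 142.1 in untreated cells, and its difference of -0.23 ± 0.22 was the only one below 0. SLC30A1 had 90.8 and 77.3 in ITGB4 cells, against 77.2 and 82.7 in untreated cells, none of them detected. MT1E had 75.7 and 87.9, not detected, in ITGB4 cells. Of the 6 kept members, 0 were called (adjusted p = 1 for each), where 0.00713% of all probes were called, which was the ITGB4 probe alone (log2 difference 6.56 ± 0.17, adjusted p = 8.6e-11). An unadjusted p under 0.05 was found for 117 probes.

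Ordered by level over the 5 groups, MT1X ran from 6 h through 1 h, 24 h and ITGB4 to untreated cells, MT2A from 6 h through ITGB4, 1 h and 24 h to untreated, and MT1H from 6 h through 24 h, ITGB4 and 1 h to untreated. For MT1X and MT1H only the step below 6 h was wider than the spread between the 2 arrays, and for MT2A so was the step from ITGB4 to 1 h. SLC30A1 ran from 6 h through 1 h, ITGB4 and untreated cells to 24 h, with the first and the last step outside the spread. Untreated cells were lowest for all 3 metallothioneins, but did not stand apart from the group above them.

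Across the 10 arrays the log2 signals of MT1X, MT2A and MT1H were correlated with one another (Pearson r of 0.92 to 0.96) and with SLC30A1 (0.89 to 0.94). These values rest largely on the 6 h arrays, and the arrays share their background and normalisation. Over the 8 arrays without HGF 6 h, r was 0.31 for MT1X and MT2A, 0.62 for MT1X and MT1H and 0.73 for MT2A and MT1H. With SLC30A1 it was then 0.15 for MT1X, 0.39 for MT2A and -0.01 for MT1H. MT1G followed MT1X with r of 0.51 over 10 and 0.75 over 8 arrays, and MT1E had r of 0.06 with MT1X over 10 arrays.

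Among 11460 other kept probes with a gene symbol, the 5 whose log2 signal had the highest Pearson r with MT1X over the 10 arrays were SCO2 (0.973), DHX37 (0.966), FAM174C (0.965), HARS1 (0.954) and CIRSR (0.952). Over the 8 arrays without 6 h their r was 0.89, 0.82, 0.72, 0.75 and 0.87 in that order. By Spearman's rho they ranked only 129, 341, 155, 97 and 12 in likeness to MT1X, in the same order, and none was among the top 5 by that measure or by Pearson r over the group means. SCO2 encodes a copper chaperone of cytochrome c oxidase, DHX37 an RNA helicase of ribosome assembly and HARS1 the histidyl-tRNA synthetase.

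SCO2 was also the one gene of the copper list that passed the test. Its signals were 371.8 and 366.5 in untreated cells, 572.4 and 521.9 at 1 h, 846.8 and 844.4 at 6 h, and 394.9 and 502.3 at 24 h. It rose at 6 h against untreated cells by 1.20 ± 0.16 on the log2 scale (SE, n = 2 arrays per group, adjusted p = 0.0077), was higher at 6 h than at 1 h (0.63, adjusted p = 0.045, kept in 2 of 10 fits that left out 1 array) and lower at 24 h than at 6 h (-0.92, adjusted p = 0.005, kept in 10 of 10). The call against untreated cells was lost without untreated replicate 2 or without either 6 h array. The other 12 of 13 kept copper genes, among them the importer SLC31A1 and the chaperones ATOX1 and COX17, did not pass against untreated cells. In that comparison 1.9% of all probes were called, and the median of the list was 0.08 against 0.01 over all probes. From 1 h to 6 h and from 6 h to 24 h, 4.67% and 8.31% of all probes were called.

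Of 6 other kept SLC30 genes, the family of SLC30A1, 0 passed at 6 h against untreated cells, where 1.9% of all probes were called. Their differences were -0.27 to 0.48, with a median of 0.17. The brightest were SLC30A5, a zinc transporter of the secretory pathway (406.5 to 636.4 over the 10 arrays), and SLC30A9 (250.5 to 438.1). Of 10 kept SLC39 genes, which bring zinc into the cytosol, 0 passed at 6 h, with differences of -0.46 to 0.47 and a median of -0.02. For lists this short, 0 calls lie near the share over all probes and are not read further. The brightest were SLC39A3 (1654.9 to 2524.4) and SLC39A4 (1092.5 to 1512.8).

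Among other metallothioneins, MT4, known from stratified squamous epithelium, was detected on 6 of 10 arrays at 81.9 to 124.7 and differed by 0.05 between 6 h and untreated cells. MT1B, MT1M and MT3, the brain metallothionein, were detected on 0 of 10 arrays. In the list of 9 kept partners and relatives of MTF1, 0 passed at 6 h, where 1.9% of all probes were called, and the median was 0.01. The brightest were HIF1A, the hypoxia-inducible factor (1200.9 to 2477.5 over the 10 arrays, 0.08 ± 0.24 at 6 h, adjusted p = 0.93), and CSNK2A1, a catalytic subunit of casein kinase 2 (481.4 to 757.9, -0.12 ± 0.16, adjusted p = 0.83).

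Of 17 kept genes of oxidative and heavy metal stress, 2 rose at 6 h against untreated cells, where 0.97% of all probes were called higher. These were SRXN1, which repairs oxidised peroxiredoxins (1.02 ± 0.22, adjusted p = 0.035), and GCLM, the modifier subunit of the enzyme that starts glutathione synthesis (0.81 ± 0.18, adjusted p = 0.035). GCLM had 402.0 and 332.7 at 6 h, against 203.0 and 214.0 in untreated cells, and SRXN1 had 1937.4 and 1798.3 at 6 h, against 1062.0 and 796.7 in untreated cells. Their arrays did not overlap, but the calls were kept in only 2 (GCLM) and 4 (SRXN1) of the 10 fits that left out 1 array. HMOX1, the heme oxygenase induced by heavy metals, was detected at 106.6 to 149.9 on all 10 arrays and did not pass. The median of the list was 0.10 at 6 h. With an ordinary pooled variance in place of the moderated one, 0 probes were called in this comparison, these 2 genes, SCO2 and MITF included.

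From 6 h to 24 h, 5 of the 17 fell, against 4.07% of all probes called lower, and the median of the list was -0.42 against 0.00 over all probes. The largest were the chaperone HSPH1 (-1.40 ± 0.26, adjusted p = 0.0064) and SRXN1 (-1.11 ± 0.22, adjusted p = 0.0091), followed by GCLM (-0.82, adjusted p = 0.013) and the thioredoxin reductase TXNRD1 (-0.70, adjusted p = 0.027), and TXN also fell. HSPH1 had 420.4 and 359.7 at 24 h, against 1078.1 and 976.9 at 6 h, and its 6 h arrays had differed from untreated cells by 0.19 ± 0.26 (adjusted p = 0.84). The calls were kept in 10 of the 10 fits that left out 1 array for HSPH1, in 9 for SRXN1, 8 for GCLM, 6 for TXNRD1 and 2 for TXN. From 1 h to 6 h only OSGIN1 of this list was called, at -0.75 (adjusted p = 0.049), and in 2 of the 10 such fits. In that comparison 4.67% of all probes were called, and OSGIN1 was not detected on HGF 6 h replicate 1 (81.1).

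Genes of the glucocorticoid response gave calls in both directions. At 6 h against untreated cells 0 of 10 kept genes passed, where 1.9% of all probes were called, with a median of -0.15. TSC22D3, known as the glucocorticoid-induced leucine zipper, stood at -1.18 ± 0.30 (adjusted p = 0.068), with signals of 113.1 and 78.0 at 6 h, the second not detected, against 250.3 and 179.7 in untreated cells. From 6 h to 24 h, TSC22D3 (1.42 ± 0.30, adjusted p = 0.013), the clock gene PER1 (1.13 ± 0.21, adjusted p = 0.007) and the transcription factor KLF9 (0.94 ± 0.19, adjusted p = 0.0097) rose, 3 of 10 kept genes where 4.24% of all probes were called higher and 4.07% lower. Leaving out 1 array at a time, these calls were kept in 8, 10 and 8 of 10 fits. The kinase gene SGK1 fell (-0.80 ± 0.19, adjusted p = 0.021), in 7 of the 10 fits, and the other 6 kept genes did not pass. From 1 h to 6 h TSC22D3 (-1.35, adjusted p = 0.027, 7 of 10 fits) and PER1 (-0.81, adjusted p = 0.048, 6 of 10 fits) fell. In that comparison 4.67% of all probes were called. PER1 was not detected on either 6 h array (81.4 and 82.4), so its differences to 6 h are set against background. FKBP5, a further glucocorticoid target, was detected on 10 of 10 arrays at 185.4 to 266.7.

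**Figure D4:**
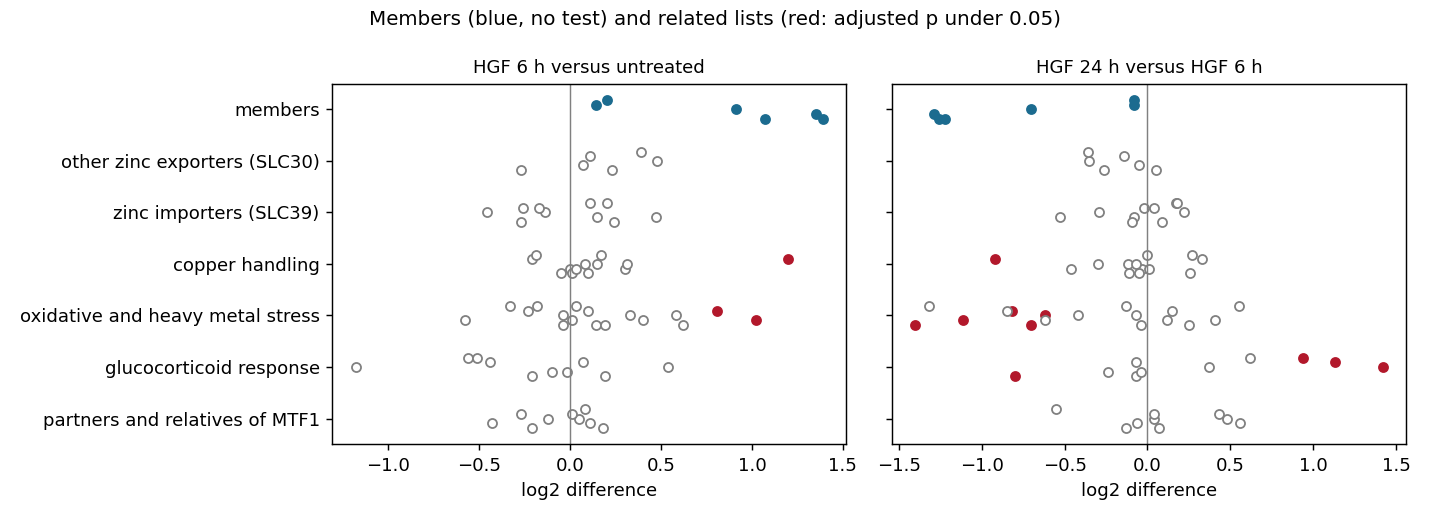
Log2 differences of the 6 kept members (blue, described without a test) and of the kept genes of 6 related lists (1 point per gene, red where the adjusted p was under 0.05, open otherwise), for HGF 6 h against untreated in the left panel and HGF 24 h against HGF 6 h in the right one. At 6 h 1 copper gene and 2 stress genes are red, and no zinc transporter is. At 24 h against 6 h 5 stress genes, the copper gene SCO2 and the glucocorticoid gene SGK1 are red on the left of 0. On its right 3 glucocorticoid genes are red.

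At 1 h and 24 h of HGF against untreated cells and in ITGB4 cells, 0 genes of any of these lists passed the test. The shares of all probes called there were 0%, 0% and 0.00713%. At 6 h against untreated cells the share was 1.9%. Of the melanocyte lineage genes, 1 of 12 kept genes fell at 6 h, MITF, the lineage transcription factor (-1.06 ± 0.23, adjusted p = 0.036, kept in 2 of 10 fits that left out 1 array), with a list median of -0.38. S100B, a calcium-binding protein of melanocytes, was lower at 6 h than at 1 h (-0.63, adjusted p = 0.039) and higher at 24 h than at 6 h (0.62, adjusted p = 0.027), in 3 and 6 of 10 fits that left out 1 array. In these comparisons 4.67% and 8.31% of all probes were called, and S100B was not detected on HGF 6 h replicate 1 (96.0). Whether the shifts of MITF and S100B have a part in the values of the metallothioneins was not tested.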

How the data were processed

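Total RNA of each sample had been labelled and hybridised to 1 Illumina Human-8 V1 array. Per the labels, the authors wrote 1 scanner table per array with BeadStudio 1.5.1.3, and these deposited tables give a linear intensity per probe without background subtraction, a detection score from 0 to 1, and, as another kind of value, the number of beads. The deposited value table of the series holds intensity after background subtraction and rank-invariant normalisation by the authors. For 9 of its 10 columns the values follow a straight line of the same array's scanner intensity (largest residual at most 0.1056), and for ITGB4 replicate 2 they do not (7751), so the scanner tables gave the main values.

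After removal of 22 control probes and 9 incomplete ones, 24105 of 24136 probes were quantile normalised and brought to log2. Of these, 14018 (58.2%) had a detection score of at least 0.99 on 1 array or more and were kept. The 5 group means were fitted over 10 arrays with limma 3.58.1 in R 4.3.3, with 5 residual and 8.16 prior degrees of freedom, a moderated two-sided test of 6 contrasts and Benjamini-Hochberg adjustment over the kept probes. The script was tested on simulated data. Standard errors come from this fit, and the number of arrays, 2 per group, limits the precision. The detection limit of 89.6 is the median over arrays of the lowest detected signal.

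Probe symbols came from the platform annotation, updated through RefSeq gene numbers, with 18758 probes naming 1 gene. The members, the 11 gene lists and the tests were chosen with earlier results of these data known. Named were every member, the called genes of each list (at most 4 per comparison) or, with none called, its 2 brightest genes, each gene by its brightest kept probe, and the 5 genes most like MT1X. Other genes, such as TXN and the examples of a list, were named after their values were seen. Promoters were searched with Python 3.11.15. Groups and replicate numbers came from the sample labels. Alternatives in background correction, scaling, filter, spread, blocks and single arrays left out were run for all member values.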

Additional observations from a re-analysis of the deposited data

Results flagged for a closer look

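Flagged were the 8 member differences between HGF times that were called (limma, adjusted p under 0.05). All 8 hold the 6 h arrays, so the flag is no test of the members. For HGF 6 h against HGF 1 h the log2 differences were 0.99 for MT1X, 1.23 for MT2A, 0.76 for MT1H and 0.98 for SLC30A1. For HGF 24 h against HGF 6 h they were -1.26 for MT1X, -1.29 for MT2A, -0.70 for MT1H and -1.22 for SLC30A1. In each of the 8 comparisons both arrays of one time lay on the same side of both arrays of the other. Of all probes, 22.7% had both 6 h arrays above both 1 h arrays, and 20.3% had both 24 h arrays below both 6 h arrays. As the members were chosen with the 6 h values known, these differences are a description, and groups of 2 arrays are too small for a search for single outlying arrays.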

How the results depend on the processing

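The log2 differences of MT1X, MT2A, MT1H and SLC30A1 in comparisons with the 6 h arrays kept their direction under all alternatives run. Over these, the difference of 6 h to untreated cells was 1.20 to 1.86 for MT1X, 1.22 to 1.57 for MT2A, 0.76 to 1.53 for MT1H and 0.90 to 2.46 for SLC30A1, highest for SLC30A1 in the authors' value table, where its low signals are set to a floor and the value is a lower bound. With that table or with arrays scaled to their medians, 3 of 6 members were called at 6 h in place of 4, and MT1H was lost. Of 786 alternative values of member differences, 27 changed sign, and 0 of these belonged to a difference that was called. The called differences all hold the 6 h arrays and were called for being large against their SE. That none changed sign is therefore no support for them.

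Counts of called probes changed with several settings. At 1 h the count was 0, with 252 when only the compared groups were fitted and 427 with the replicate number as a block. At 6 h it was 267, with 468 in the value table, 407 with detection required on both arrays of a group, 145 with only the compared groups, 0 with an ordinary pooled variance and 1066 with the array background as a block. From 1 h to 6 h it was 654, with 337 for signals floored at the detection limit, 0 with ordinary variance and 1690 with the background block. From 6 h to 24 h it was 1165, with 599 for only the compared groups, 107 with ordinary variance and 2163 with the background block. With the replicate block the counts were 1089 at 6 h, 1871 from 1 h to 6 h and 2245 from 6 h to 24 h, and the members called remained 4 of 6 in each. Deviations from group means correlated at 0.59 to 0.66 among untreated, 6 h and 24 h and at -0.06 to 0.43 otherwise. Pairing was not shown. Members called with ordinary variance were 0 at 6 h, 0 from 1 h to 6 h and 1 from 6 h to 24 h.

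Leaving out 1 array at a time gave 0 to 490 called probes at 6 h, 0 to 1037 from 1 h to 6 h, 308 to 1068 from 6 h to 24 h and 1 to 2 in ITGB4 cells. Members called were 0 to 4 at 6 h, 0 to 4 from 1 h to 6 h and 3 to 4 from 6 h to 24 h. The share of calls that were higher at 6 h was 50.9%, with 68.6% in the value table and 17.1% with median scaling. From 6 h to 24 h it was 51%, with 39.4% and 65.6%. The value table moved the median of all probes at 6 h to 0.16.

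The sign changes were in differences near 0. At 24 h against untreated cells MT2A and MT1G were at -0.04 each without untreated replicate 1, MT1E at -0.06 without untreated replicate 2 and -0.09 without HGF 24 h replicate 1, and MT1X, MT2A and MT1G at -0.09, -0.09 and -0.20 without HGF 24 h replicate 2. In ITGB4 cells MT1X was at -0.26 in the value table, -0.01 without untreated replicate 1 and -0.11 without ITGB4 replicate 2, and SLC30A1 at -0.05 without ITGB4 replicate 1. Leaving out 1 array at a time, the 24 h differences ran up to 0.35 for MT1X, 0.23 for MT2A, 0.21 for MT1E and 0.45 for MT1G, and those in ITGB4 cells up to 0.20 for MT1X and 0.18 for SLC30A1. Within high-score arrays MT2A, MT1H and SLC30A1 were at -0.04 each at 1 h and MT1X at -0.01 in ITGB4 cells, and within low-score arrays MT1X and MT1G were at -0.04 and -0.03 at 24 h. In comparisons with the 6 h arrays, over all alternatives, MT1E at 6 h against untreated cells ran between -0.02 and 0.31, MT1G at 6 h against 1 h between -0.17 and 0.19, and at 24 h against 6 h MT1G between -0.40 and 0.24 and MT1E between -0.25 and 0.09. Of the 5 genes most like MT1X, 0 were among the top 5 by Spearman's rho or by Pearson r over group means. Each member with a probe had 1, so no other probe could be tried for the members. Some genes of the lists had more, such as TSC22D3, MITF and OSGIN1 with 3 each. Only the brightest kept probe of these was used, and the others were not compared. The cause of these changes was not tested. Signals near the detection limit, as for MT1E, MT1F and SLC30A1, understate differences on the log2 scale. For MT1H, also a dim probe, the difference of 6 h to untreated cells was 0.91 without and 1.53 with background subtraction.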
